A study of Homo sapiens with 11 samples.

Results

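Glutathione S-transferases are described here in ARPE-19, an established human cell line of retinal pigment epithelium (RPE), the pigmented layer that supports the photoreceptors of the eye. The members were the rows of the deposited table whose symbol was on a given list of 10 transferase genes, out of 60605 features: GSTA4, GSTM1, GSTM2, GSTM3, GSTM4, GSTP1, GSTO1, GSTZ1, MGST1 and MGST2. All 10 were found, and all 10 reached the level needed for testing (a value of 10 or more in 2 or more libraries), as did 18828 genes in all. GSTA4 is named in the title of the series and was set beside its cytosolic and microsomal relatives.

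Polyadenylated RNA was sequenced from stable ARPE-19 lines 4 days after an open reading frame was expressed. The control lines expressed the fluorescent protein GFP (n = 3 libraries). The others expressed Oct4, Sox2 or Klf4 alone, or the combination of all 3 factors, called OSK (n = 2 libraries for each of these 4). The groups had the cell line, the 4 days of expression and the library method in common. The library names of the Oct4, Sox2, Klf4 and OSK lines carry the suffix mC, which those of GFP lack. Any element that the suffix stands for cannot be told apart from the factors in comparisons with GFP. The labels give neither the species of the reading frames, the promoter that drove them nor whether a line was 1 clone or a pool, and they do not say that the libraries of a group were separate cultures, so the tests measure the spread between libraries.

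Glutathione S-transferases join the thiol of glutathione to reactive, electron-poor molecules, which makes them more soluble and marks them for export. The cytosolic enzymes are sorted into classes named alpha, mu, pi, omega and zeta, and the microsomal enzymes (MGST) are a separate family of membrane proteins. GSTA4, of the alpha class, is known for its activity toward 4-hydroxynonenal, a toxic aldehyde released when polyunsaturated fatty acids are oxidised. The RPE takes up photoreceptor membranes rich in such fatty acids under strong light and oxygen, which is why this chemistry is studied there.

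Values are normalised counts: the reads of a gene, scaled by 1 factor for each library. Recovered reads ranged from 15053300 to 19791775 per library, and the members had between 55 reads (MGST2 in GFP replicate 1) and 8324 reads (GSTP1 in Klf4 replicate 1). Each delivered factor was highest in the lines labelled for it. POU5F1, the gene of Oct4, averaged 67074 in the Oct4 line against 263 in GFP. SOX2 averaged 29123 in the Sox2 line against 62.0, and KLF4 23173 in the Klf4 line against 72.1. In OSK, POU5F1 averaged 19281, SOX2 17673 and KLF4 24336. POU5F1 and SOX2 were thus lower in OSK than in their single-factor lines, and the part of this in the results below was not tested. Of 14 RPE markers, 12 reached the testing level, but RPE65 and TTR, which mark mature RPE, had at most 4 and 5 reads in any library. The summed RPE markers ran from 33495 to 37207 in GFP and were lower in every other line, from 15856 to 16158 in OSK. KRT8 and KRT18, with means of 15930 and 5307 in GFP, gave most of that GFP sum, and averaged 14283 and 5015 with Sox2. PMEL, TYRP1, TYR, SERPINF1 and MITF averaged lower than GFP in every other line. In GFP, Sox2 and OSK, PMEL averaged 5147, 140 and 809, and TYRP1 2491, 134 and 816. In the same order TYR averaged 480, 14.3 and 86.6, SERPINF1 1034, 83.5 and 332, and MITF 3406, 769 and 1661. The markers did not all follow the sum. OTX2 averaged 1881 in GFP, 1494 with Oct4 and 1208 with Sox2, but 2320 with Klf4 and 1970 in OSK. MLANA, at low counts, averaged 13.5 in GFP, 28.8 with Klf4 and 13.1 in OSK, and was also higher with Oct4 and Sox2. The part of the RPE markers in the results below was not tested. Among markers of other cell types, 5 of 6 fibroblast, 6 of 6 pluripotent cell and 2 of 5 photoreceptor markers reached the testing level. None of 3 haematopoietic markers did. The summed fibroblast markers ran from 13892 to 16437 in GFP and from 5149 to 5949 in OSK. PDGFRB and COL1A1, with means of 11258 and 3856 in GFP, gave most of that GFP sum. The other fibroblast markers had GFP means of at most 45.6 (THY1). COL1A1 averaged 7699 with Sox2. GFP replicate 1 and OSK replicate 1 stood apart, with reads on 42956 and 32493 features against 25853 to 26971 in the other 9 libraries. Results of the members that changed without these libraries are given both ways. Those of the other genes are given with all libraries only.

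GSTA4 rose most when the 3 factors were expressed together, above GFP and above every line with 1 factor. It lies on chromosome 6 (6:52977948-52995378, minus strand, GRCh38, GENCODE 29). Its normalised counts were 88.38, 127.47 and 125.4 in GFP, 183.47 and 192.28 with Oct4, 169.42 and 193.51 with Sox2, 176.97 and 129.12 with Klf4, and 514.91 and 464.16 in OSK. Both OSK libraries lay far above all 9 others, and every single-factor library lay above every GFP library, the lowest of them (Klf4 replicate 2) only narrowly. The OSK mean was 490 ± 35.9 (SD, n = 2) against 114 ± 22.0 in GFP (n = 3), which is 2.11 higher on the log2 scale (SE 0.17; limma adjusted p = 7.68e-08). Without the 2 libraries that stood apart the change was 1.87 (limma adjusted p = 3.32e-06). Fewer cells that express a gene and less RNA per cell cannot be told apart in such bulk samples.

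The single-factor lines gave smaller GSTA4 changes. GSTA4 rose with Oct4 (log2 change 0.74, SE 0.17; limma adjusted p = 0.003) and with Sox2 (0.69, SE 0.17; limma adjusted p = 0.00431). The Sox2 call was lost without Sox2 replicate 2 (0.59, limma adjusted p = 0.0567). The Klf4 change of 0.43 (SE 0.17) did not pass (limma adjusted p = 0.0697), but it did without GFP replicate 2 (0.52, limma adjusted p = 0.0462) or Klf4 replicate 2 (0.65, limma adjusted p = 0.0273), whose value was near those of GFP. The 3 single-factor lines were not told apart: the log2 difference was 0.05 between Oct4 and Sox2 (95% interval -0.35 to 0.45), 0.31 between Oct4 and Klf4 (-0.09 to 0.71) and 0.26 between Sox2 and Klf4 (-0.14 to 0.66). OSK exceeded Oct4 by 1.38, Sox2 by 1.43 and Klf4 by 1.69 on the log2 scale (SE 0.19 each), with limma adjusted p-values of 2.24e-05, 1.52e-05 and 6.87e-06. The levels of GSTA4 ran from GFP through the 3 single-factor lines to OSK. Differences among the single-factor lines did not pass, but their intervals are wide, and both Oct4 libraries lay above both Klf4 libraries.

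**Figure D1:**
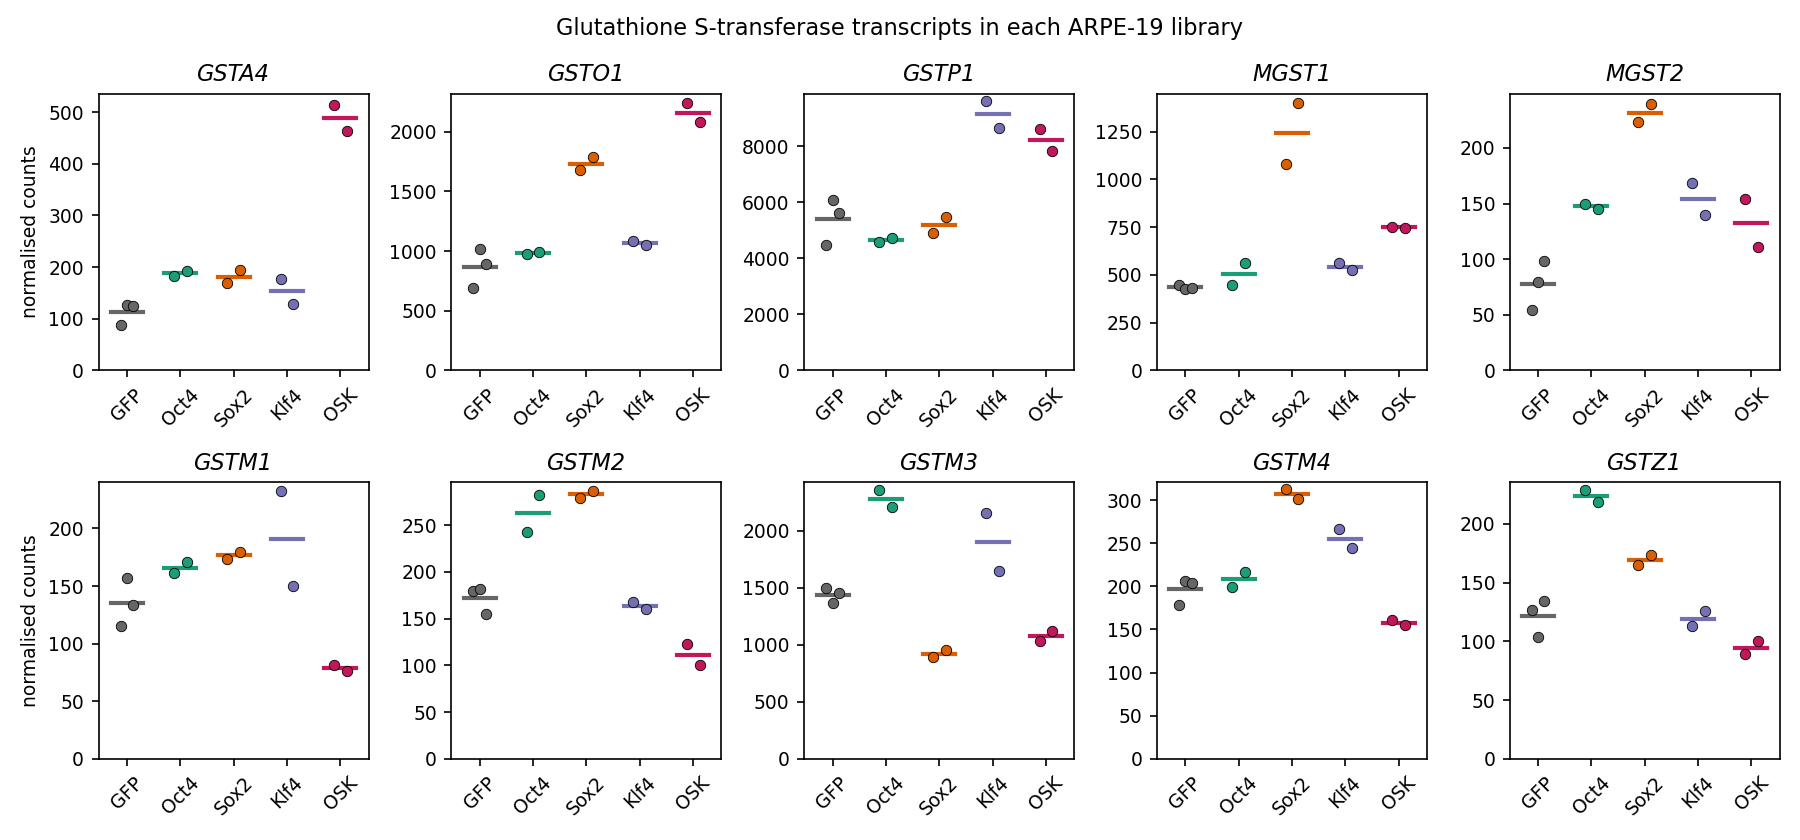
Normalised counts (linear axes from 0) of each transferase in every library, by line, with points for libraries and a bar at each group mean (n = 3 for GFP, n = 2 for the others). The OSK libraries of GSTA4, 514.91 and 464.16, sit above all others, whereas those of GSTM1, GSTM2 and GSTM4 sit below all others.

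Sequence upstream of GSTA4 is shown because its transcript moved with the delivered factors. RefSeq promoter windows (GRCh38.p14) were found for 9 of the 10 members, 11 windows in all since MGST1 has 3, and were searched over the 250 bases before the start, on both strands, for letters that the factors and the antioxidant response are known to recognise. The letters were ATGCAAAT (the octamer bound by Oct4), ACAAAG (SOX), GGGTGTG (KLF4) and TGACNNNGC (the antioxidant response element core). A match is a description and not a binding site, and no binding was measured. The stretch of GSTA4 that lies before any annotated exon, bases 250 to 95 before the start (chr6:52995379-52995534, minus strand), held none of the 4.
GSTA4 upstream: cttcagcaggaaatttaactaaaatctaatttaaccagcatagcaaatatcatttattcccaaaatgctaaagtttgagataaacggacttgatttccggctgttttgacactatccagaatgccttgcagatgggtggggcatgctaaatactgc

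The antioxidant response element core (TGACNNNGC) was found in the windows of GSTA4, GSTP1, GSTO1 and GSTM1, and 10.9% of 35116 RefSeq windows of that length held it. The 30 bases around each match are shown to compare them, with the matched letters in capitals. They lay 9 bases before the start of GSTA4 (chr6:52995285-52995314, minus strand), 66 before GSTP1 (chr11:67583736-67583765, plus strand), 226 and 161 before GSTO1 (chr10:104254656-104254685 and chr10:104254721-104254750, plus strand) and 165 before GSTM1 (chr1:109687642-109687671, plus strand). Those of GSTA4, GSTP1 and the second of GSTO1 lie in annotated exons.
GSTA4: gtctcacccagccgggaccgcTGACCTGGC
GSTP1: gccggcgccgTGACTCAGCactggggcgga
GSTO1 first: ggcggagggaTGACTGAGCatttataactt
GSTO1 second: cgagatgcttTGACACAGCcccttaagatg
GSTM1: ctgggcgcccTGACTTCGCtcccggaaccc
Of the 4 genes, GSTA4, GSTO1 and GSTP1 rose in OSK against GFP and GSTM1 fell. Of the members with a window but without this match, MGST1 rose in OSK (log2 change 0.78), GSTM2, GSTM3 and GSTM4 fell, and GSTZ1 did not pass. A link between these letters and the changes was not tested. No octamer or KLF4 letters were found in any of the 11 windows of the 9 members, against 1.63% and 6.63% of all windows.

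GSTO1, an omega-class enzyme that acts mainly as a reductase, had the second largest OSK change among the members. It lies at 10:104235356-104267459 on the plus strand. In normalised counts, its level was 689.17, 1015.69 and 895.28 in GFP, 976.55 and 990.02 with Oct4, 1675.09 and 1789.55 with Sox2, 1080.3 and 1047.79 with Klf4, and 2241.77 and 2076.61 in OSK. The Sox2 and OSK libraries stood above the rest, and the OSK libraries above the Sox2 libraries. GSTO1 rose by a log2 change of 1.33 in OSK (SE 0.12; limma adjusted p = 1.56e-07) and 1.02 with Sox2 (SE 0.12; limma adjusted p = 2.82e-06). The Oct4 change of 0.20 did not pass (limma adjusted p = 0.197), except without GFP replicate 2 (0.32, limma adjusted p = 0.0247). The Klf4 change of 0.31 passed narrowly (limma adjusted p = 0.0478) and was lost in 17 of 21 alternative settings, with 0.16 (limma adjusted p = 0.121) without GFP replicate 1. OSK exceeded Oct4 by 1.13 and Klf4 by 1.02 on the log2 scale (SE 0.13 each; limma adjusted p = 2.57e-06 and 2.03e-05). Its excess over Sox2 of 0.32 (95% interval 0.05 to 0.59) did not pass (limma adjusted p = 0.0576) but did in 6 of 21 settings, among them without GFP replicate 1 (limma adjusted p = 0.00237).

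GSTP1, the pi-class enzyme and the most abundant member, rose with Klf4 and in OSK. It lies at 11:67583595-67586656 on the plus strand. The libraries gave normalised counts of 4487.54, 6080.99 and 5615.66 in GFP, 4583.17 and 4708.62 with Oct4, 4889.52 and 5473.97 with Sox2, 9627.87 and 8649.67 with Klf4, and 8613.68 and 7838.97 in OSK. All 4 libraries that received Klf4, alone or with the other factors, lay above all 7 that did not. The log2 change was 0.77 with Klf4 (SE 0.10; limma adjusted p = 2.81e-05) and 0.62 in OSK (SE 0.10; limma adjusted p = 0.000169), and the 2 lines differed by -0.15 (95% interval -0.39 to 0.09; limma adjusted p = 0.41). The Oct4 and Sox2 changes of -0.20 and -0.05 did not pass (limma adjusted p = 0.143 and 0.747). Without GFP replicate 1, the lowest GFP library, the Oct4 change was -0.33 and passed (limma adjusted p = 0.00126).

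The mu-class genes GSTM4, GSTM2, GSTM1 and GSTM3 lie in 1 cluster on chromosome 1, and all 4 were lower in OSK than in GFP. GSTM4 (1:109656081-109674836), GSTM2 (1:109668022-109709551) and GSTM1 (1:109687814-109709039) are on the plus strand and GSTM3 (1:109733932-109741038) on the minus strand. The values of GSTM1, GSTM2 and GSTM4 are uncertain as separate genes: 38.3% of the exon bases of GSTM1 overlap another gene's exons, and 49.7% of its 50-base transcript sequences occur in another transferase gene, against 15.9% for GSTM2 and 15.5% for GSTM4. The treatment of reads that match more than 1 gene is not given in the sources used here. GSTA4 and GSTP1 had no such shared sequence, and GSTM3 none with another transferase, although 4.25% of its exon bases overlap an antisense gene.

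GSTM1, which detoxifies epoxides and quinones, fell in OSK. Its normalised counts were 115.19, 156.8 and 133.17 in GFP, 161.4 and 170.54 with Oct4, 173.9 and 179.81 with Sox2, 232.48 and 149.68 with Klf4, and 81.3 and 75.89 in OSK. The OSK libraries were the 2 lowest, and the Klf4 libraries were spread widely. The log2 change in OSK was -0.76 (SE 0.18; limma adjusted p = 0.00318). The changes of 0.31, 0.40 and 0.47 with Oct4, Sox2 and Klf4 did not pass (limma adjusted p = 0.211, 0.0954 and 0.0571), although that with Klf4 did in 4 of 21 settings, including without GFP replicate 2 (0.59, limma adjusted p = 0.0327) and without Klf4 replicate 2 (0.79, limma adjusted p = 0.00748). OSK was lower than the Oct4, Sox2 and Klf4 lines by log2 differences of -1.07, -1.16 and -1.24 (limma adjusted p = 0.000423, 0.000206 and 0.000262).

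GSTM2 rose with Oct4 and Sox2 and fell in OSK. In normalised counts, its level was 179.74, 182.1 and 154.56 in GFP, 242.69 and 282.7 with Oct4, 279.37 and 286.84 with Sox2, 167.71 and 159.97 with Klf4, and 122.5 and 100.09 in OSK. The Klf4 libraries lay within the GFP range, the Oct4 and Sox2 libraries above it and the OSK libraries below it. The log2 changes were 0.61 with Oct4 (SE 0.14; limma adjusted p = 0.00217), 0.72 with Sox2 (SE 0.14; limma adjusted p = 0.00044) and -0.63 in OSK (SE 0.14; limma adjusted p = 0.00145). With Klf4 the change was -0.07 (95% interval -0.36 to 0.22; limma adjusted p = 0.746). OSK was lower than Oct4 by -1.24 and than Sox2 by -1.35 (limma adjusted p = 5.59e-06 and 2.19e-06). Its difference of -0.56 from Klf4 passed (limma adjusted p = 0.0122), but not without OSK replicate 2 (-0.42, limma adjusted p = 0.143) or Klf4 replicate 1 (-0.53, limma adjusted p = 0.0787).

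GSTM3 moved in opposite directions with Oct4 and Sox2. The libraries gave normalised counts of 1500.48, 1364.71 and 1453.25 in GFP, 2356.03 and 2206.66 with Oct4, 889.72 and 958.14 with Sox2, 2157.13 and 1645.38 with Klf4, and 1038.5 and 1122.99 in OSK. No line overlapped GFP: Oct4 and Klf4 lay above it, Sox2 and OSK below it. The log2 change was 0.66 with Oct4 (SE 0.10; limma adjusted p = 4.63e-05) and -0.64 with Sox2 (SE 0.10; limma adjusted p = 5.32e-05), and the Oct4 and Sox2 lines differed by 1.30 (limma adjusted p = 9.11e-08). The Klf4 change of 0.39 (limma adjusted p = 0.00515) was lost without Klf4 replicate 1 (0.19, limma adjusted p = 0.161). The OSK change of -0.41 (SE 0.10; limma adjusted p = 0.00264) missed the threshold without the 2 libraries that stood apart (-0.33, limma adjusted p = 0.0545). OSK was lower than Oct4 by -1.08 and than Klf4 by -0.80 (limma adjusted p = 5.85e-07 and 3.62e-05). OSK exceeded Sox2 by 0.23 (95% interval 0.00 to 0.45; limma adjusted p = 0.104), which passed in 3 settings, among them without Klf4 replicate 1 (limma adjusted p = 0.0385) and without Klf4 replicate 2 (limma adjusted p = 0.0381).

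The window before GSTM3 is shown because GSTM3 was the member that fell with Sox2. Its window was also the only 1 of the 11 with the SOX letters (ACAAAG), which 13.7% of all windows held. The 2 matches, in capitals, began 156 and 50 bases before the start (chr1:109741039-109741288, minus strand), and the stretch lies before the annotated exons. Members that rose with Sox2, such as MGST1 and GSTO1, had no such match, and a link between the letters and the changes was not tested.
GSTM3 upstream: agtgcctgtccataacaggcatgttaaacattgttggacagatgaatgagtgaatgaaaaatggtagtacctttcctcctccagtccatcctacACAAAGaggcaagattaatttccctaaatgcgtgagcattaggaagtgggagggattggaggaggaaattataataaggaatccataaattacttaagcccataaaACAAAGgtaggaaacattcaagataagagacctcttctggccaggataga

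GSTM4 rose with Sox2. Its normalised counts were 178.75, 206.38 and 204.14 in GFP, 199.72 and 216.32 with Oct4, 313.03 and 301.4 with Sox2, 266.03 and 244.52 with Klf4, and 160.44 and 155.09 in OSK. The Sox2 libraries were the highest, the Klf4 libraries next, and the OSK libraries the lowest. The log2 change was 0.65 with Sox2 (SE 0.12; limma adjusted p = 0.000284) and 0.38 with Klf4 (limma adjusted p = 0.0194), the latter lost in 5 of 21 settings, including without GFP replicate 1 (0.31, limma adjusted p = 0.0623) and without Klf4 replicate 1 (0.32, limma adjusted p = 0.147). The OSK change of -0.31 passed narrowly (limma adjusted p = 0.0434) and was lost in 14 of 21 settings, with limma adjusted p-values up to 0.202. Leaving out GFP replicate 2 or 3, either Sox2 or either OSK library ended that call, with changes from -0.34 to -0.27. With the replicate number as a block it was -0.28 (limma adjusted p = 0.135). Against the single-factor lines OSK was lower by -0.96 than Sox2 and by -0.69 than Klf4 (limma adjusted p = 1.58e-05 and 0.000846). The difference of -0.40 from Oct4 (limma adjusted p = 0.0204) was lost without Oct4 replicate 2 (-0.34, limma adjusted p = 0.117), OSK replicate 1 (-0.42, limma adjusted p = 0.0588) or OSK replicate 2 (-0.37, limma adjusted p = 0.092).

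GSTZ1, the zeta-class enzyme also known as maleylacetoacetate isomerase of tyrosine breakdown, rose with Oct4 and Sox2. It lies at 14:77320884-77331597 on the plus strand. In normalised counts, its level was 127.11, 104.2 and 134.15 in GFP, 228.75 and 218.61 with Oct4, 164.93 and 173.82 with Sox2, 113.35 and 125.69 with Klf4, and 88.89 and 100.09 in OSK. The Oct4 libraries were the highest and the OSK libraries the lowest. The log2 change was 0.88 with Oct4 (SE 0.15; limma adjusted p = 0.000221) and 0.48 with Sox2 (limma adjusted p = 0.0171), the latter lost without GFP replicate 2 (0.37, limma adjusted p = 0.0714), Sox2 replicate 1 (0.52, limma adjusted p = 0.0607) or Sox2 replicate 2 (0.44, limma adjusted p = 0.106). The OSK change of -0.36 did not pass (limma adjusted p = 0.0715), except without GFP replicate 2 (-0.47, limma adjusted p = 0.0289), and the Klf4 change was -0.02 (95% interval -0.34 to 0.30; limma adjusted p = 0.933). OSK was lower than Oct4 by -1.24 and than Sox2 by -0.84 (limma adjusted p = 1.61e-05 and 0.000668).

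Both microsomal members, MGST1 and MGST2, were highest in the Sox2 line. MGST1, a membrane transferase and glutathione peroxidase, lies at 12:16347142-16609259 on the plus strand. The libraries gave normalised counts of 448.85, 423.88 and 433.54 in GFP, 445.89 and 564.26 with Oct4, 1080.45 and 1400.81 with Sox2, 562.13 and 525.61 with Klf4, and 749.06 and 747.93 in OSK. The Sox2 libraries lay above all others and the OSK libraries above the remaining 7. MGST1 rose by a log2 change of 1.50 with Sox2 (SE 0.11; limma adjusted p = 2.56e-08) and 0.78 in OSK (SE 0.11; limma adjusted p = 3.71e-05). OSK was lower than Sox2 by -0.72 and higher than Oct4 by 0.58 (limma adjusted p = 0.000203 and 0.0013). Its excess of 0.46 over Klf4 (limma adjusted p = 0.0128) was lost without Klf4 replicate 2 (0.41, limma adjusted p = 0.0872), OSK replicate 1 (0.46, limma adjusted p = 0.0661) or OSK replicate 2 (0.46, limma adjusted p = 0.0728). The Klf4 change from GFP of 0.32 passed (limma adjusted p = 0.0384) but was lost in 11 of 21 settings. Among these were leaving out either Klf4 library, GFP replicate 2 or 3 or either OSK library, with changes from 0.27 to 0.37, and the replicate block (limma adjusted p = 0.077). The Oct4 change of 0.20 did not pass (limma adjusted p = 0.175), except without Oct4 replicate 1 (0.37, limma adjusted p = 0.0408).

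MGST2, which can also make leukotriene C4, was the member that rose in all 4 lines, as 3.36% of all genes tested did. It lies at 4:139665768-139740745 on the plus strand, and 7.92% of its exon bases overlap exons of MAML3 on the other strand. Its normalised counts were 54.62, 79.92 and 98.18 in GFP, 149.79 and 145.36 with Oct4, 223.27 and 239.75 with Sox2, 168.87 and 139.4 with Klf4, and 153.93 and 111.09 in OSK. Every library of the 4 lines lay above every GFP library, with the Sox2 libraries highest. The log2 change was 0.96 with Oct4, 1.60 with Sox2, 1.02 with Klf4 and 0.79 in OSK (SE 0.21 each), with limma adjusted p-values of 0.00212, 1.49e-05, 0.00156 and 0.00777. The OSK call was lost without OSK replicate 1 (0.55, limma adjusted p = 0.137) and without the 2 libraries that stood apart (0.32, limma adjusted p = 0.262). OSK differed from Sox2 by -0.82 (limma adjusted p = 0.0106), lost without Sox2 replicate 2 (-0.77, limma adjusted p = 0.0662) or OSK replicate 2 (-0.58, limma adjusted p = 0.13). Its differences of -0.17 from Oct4 (95% interval -0.67 to 0.32) and -0.23 from Klf4 (-0.73 to 0.27) did not pass (limma adjusted p = 0.603 and 0.563).

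**Figure D2:**
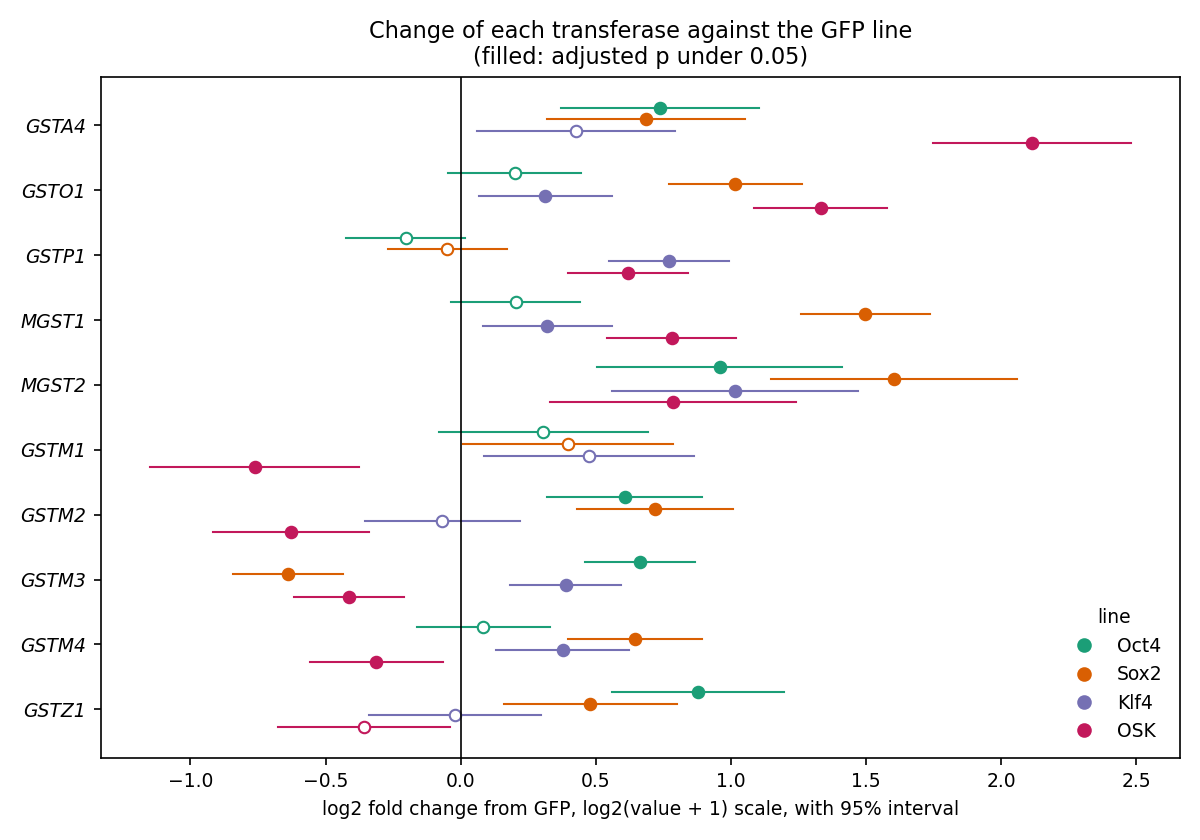
Log2 fold change of each transferase from GFP (x axis, log2(value + 1) scale) in the Oct4, Sox2, Klf4 and OSK lines, with 95% intervals from limma, filled where the adjusted p was under 0.05. The OSK change of GSTA4, 2.11, is the rightmost point, and the OSK changes of the 4 mu-class genes lie left of 0.

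Counted over the members, 5 of 10 passed with Oct4, all higher, beside 37.3% of all genes tested (20.1% higher and 17.2% lower). With Sox2, 8 passed, 7 higher and GSTM3 lower, beside 41.6% of all genes (21.7% higher and 19.9% lower). With Klf4, 6 passed, all higher, beside 33.5% (17.6% higher and 16% lower), but that count fell to 2 without Klf4 replicate 1 and to 3 with DESeq2. In OSK, 9 passed, 5 higher (GSTA4, GSTO1, MGST2, MGST1 and GSTP1) and the 4 mu-class genes lower, beside 39.7% (19.7% higher and 20% lower), and 6 passed without the 2 libraries that stood apart. The median log2 change of the members was 0.46 with Oct4, 0.67 with Sox2, 0.38 with Klf4 and 0.15 in OSK, while that of all genes was between -0.02 and -0.01. The 6 other transferase family genes tested had medians of -0.24, -0.04, 0.23 and 0.08 in the same order. The members were chosen with earlier results of these data known, so their medians describe the list and not the whole family. The comparisons share the GFP libraries.

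Set against the single-factor lines, 9 of 10 members differed between OSK and Oct4, 4 higher and 5 lower, beside 40.3% of all genes (18.4% higher and 21.9% lower). Between OSK and Sox2, 8 differed, 2 higher and 6 lower, beside 40.5% (20% higher and 20.5% lower). Between OSK and Klf4, 7 differed, 3 higher and 4 lower, beside 21.5% (9.56% higher and 11.9% lower). GSTA4 was the only member that passed as higher in OSK than in GFP and in each of the 3 single-factor lines, as 2.77% of genes tested did. GSTM1, GSTM2 and GSTM4 passed as lower in OSK than in all 4 other lines, as 3.35% of genes did, with the GSTM2 and GSTM4 calls depending on single libraries as described above. GSTO1, GSTP1, MGST1 and MGST2 were higher than GFP in OSK but did not pass as higher than every single-factor line.

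Differences between the single-factor lines were tested directly. Oct4 and Sox2 differed for 5 of 10 members, 1 higher and 4 lower with Oct4, beside 33.4% of all genes (18% higher and 15.4% lower). Oct4 and Klf4 differed for 4, 3 higher and 1 lower with Oct4, beside 41.7% (21.8% higher and 20% lower). Sox2 and Klf4 differed for 6, 4 higher and 2 lower with Sox2, beside 40.8% (20.1% higher and 20.7% lower). GSTM3 passed in all 3 pairs and was highest with Oct4, although its difference of 0.28 between Oct4 and Klf4 (limma adjusted p = 0.0472) was lost in 15 of 21 settings, with 0.08 (limma adjusted p = 0.588) without Klf4 replicate 2 and 0.47 (limma adjusted p = 0.00195) without Klf4 replicate 1. Leaving out any other library except GFP replicates 1 and 2 also ended it, with limma adjusted p-values from 0.0558 to 0.221. MGST1 was higher with Sox2 than with Oct4 (log2 difference of Oct4 from Sox2 -1.29, limma adjusted p = 5.68e-07) and than with Klf4 (1.18, limma adjusted p = 1.05e-06). GSTP1 was lower with Oct4 and with Sox2 than with Klf4, by -0.97 and -0.82 (limma adjusted p = 3.74e-06 and 2.43e-05). GSTZ1 was higher with Oct4 than with Klf4 by 0.90 (limma adjusted p = 0.000327). The MGST2 difference of -0.65 between Oct4 and Sox2 (limma adjusted p = 0.0445) was lost in 8 of 21 settings, among them without any 1 of those 4 libraries or without Klf4 replicate 1, with limma adjusted p-values up to 0.174. The GSTZ1 difference of 0.50 between Sox2 and Klf4 (limma adjusted p = 0.0228) was lost in 4 of 21, including without either Sox2 library or without Klf4 replicate 1, with values up to 0.127. The MGST2 difference of 0.59 between Sox2 and Klf4 did not pass (limma adjusted p = 0.0558) but did in 7 of 21 settings, among them without GFP replicate 1 (limma adjusted p = 0.014) or GFP replicate 3 (limma adjusted p = 0.0364). GSTA4 and GSTM1 passed in none of these 3 pairs.

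In a contrast fitted in the same model, the OSK change was set against the log2 changes of the 3 single-factor lines added together. POU5F1 and SOX2 were lower in OSK than in their single-factor lines, so the factor levels on the sides of this contrast were not equal. An effect that every other line shares against GFP, such as that of any element behind the suffix mC, is counted in each of the 3 added changes. It is not repeated in the OSK change, so it would by itself make OSK differ from the sum. The part of such an effect was not tested. For GSTA4 the sum was 1.85 and the OSK change 2.11, a difference of 0.26 (SE 0.34; 95% interval -0.47 to 1.00; limma adjusted p = 0.594). For GSTO1 the sum was 1.53 against 1.33 (difference -0.20, 95% interval -0.69 to 0.30; limma adjusted p = 0.55), and for GSTP1 0.52 against 0.62 (difference 0.10, 95% interval -0.34 to 0.54; limma adjusted p = 0.744). These intervals are wide, and a missed threshold does not show that the OSK change equals the sum.

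The other 7 members passed as lower in OSK than the sum, beside 35.9% of all genes that differed from it (15.6% higher and 20.3% lower). MGST2 had the largest shortfall, with a sum of 3.58 against 0.79 (difference -2.79, SE 0.43; limma adjusted p = 9.11e-05). It had passed as higher than GFP in all 4 lines, so a shared change enters its sum repeatedly. MGST1 had a sum of 2.02 against 0.78 (difference -1.24, SE 0.22; limma adjusted p = 0.000424). The differences of GSTM1, GSTM2, GSTM3 and GSTM4 were -1.94, -1.89, -0.83 and -1.42, and that of GSTZ1 was -1.70, with limma adjusted p-values from 5.01e-05 to 0.00312. All 7 calls held in every setting tried, including without the 2 libraries that stood apart. The median over all genes in this contrast was -0.02, and -0.14 when TMM factors were taken from all features.

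**Figure D3:**
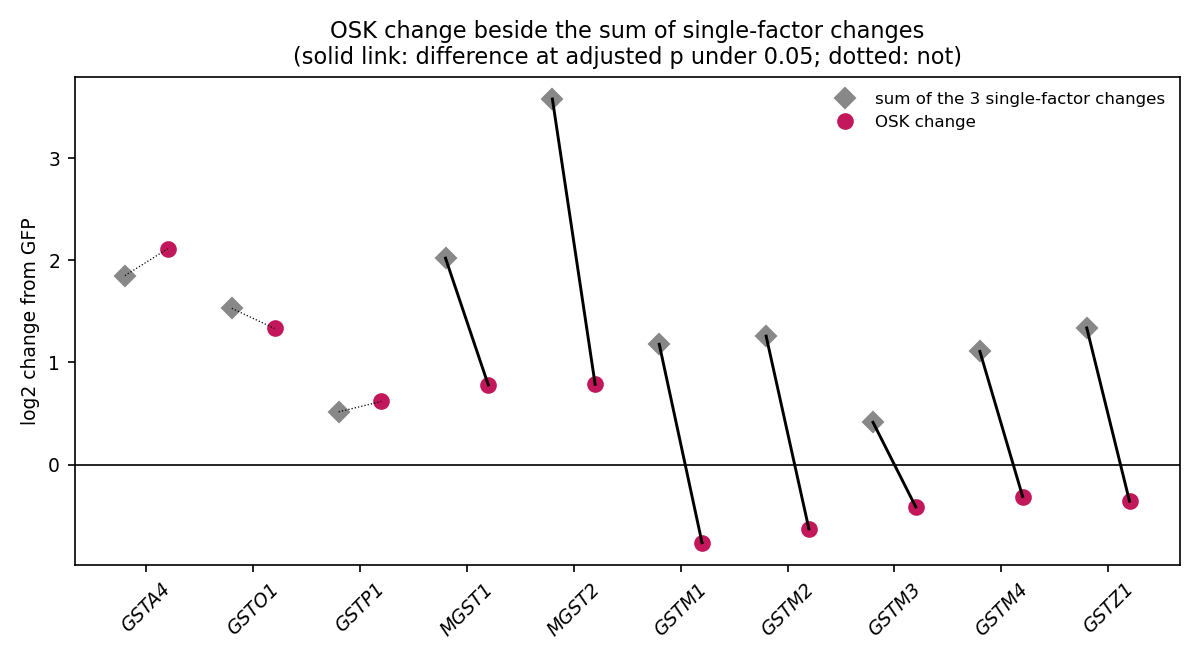
Log2 change from GFP (y axis) of each transferase in OSK (circles) and the sum of its 3 single-factor changes (diamonds), joined by a solid line where the difference passed at an adjusted p under 0.05 and by a dotted line where it did not. GSTA4, GSTO1 and GSTP1 have dotted links, and the 7 solid links fall to the OSK value.

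Levels were compared between members only per length, as normalised counts per kb of exon (the union of GENCODE 29 exons). On that scale GSTP1 was the highest member in every line, with 72.4% ± 1.12 (SD, n = 3) of the members' summed level in GFP and 68.8% ± 0.49 in OSK (n = 2). GSTO1 was second, with 13.1% ± 0.75 in GFP and 20.4% ± 0.11 in OSK, and GSTM3 came next. The share of GSTA4 was 1.34% ± 0.10 in GFP and 3.59% ± 0.05 in OSK, with ranks 6 and 4. It was 2.24% ± 0.05 with Oct4 (rank 4), 1.88% ± 0.04 with Sox2 (rank 5) and 1.14% ± 0.16 with Klf4 (rank 6; n = 2 each). With the length of the principal transcript in place of all exons, GSTA4 had rank 9 in GFP and in the single-factor lines and rank 4 in OSK. GSTM3 then had rank 4 in GFP, so its place depends on the length used. GSTA4 had the largest log2 change in OSK among the members, while its level remained well below those of GSTP1 and GSTO1.

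The nearest relatives of GSTA4 were not detected at a useful level. GSTA1, GSTA2, GSTA3 and GSTA5 had at most 3 reads in any library, and those were in GFP replicate 1 or OSK replicate 1. GSTM5, of the mu class, had 18 reads in GFP replicate 1, the library with reads on the most features, and at most 1 read elsewhere. Of 14 further transferase family genes looked for, 13 were found and 6 were tested, and GSTT1 was not analysed here. Of the 6, PTGES and GSTO2 passed in OSK, beside 39.7% of all genes. PTGES, the prostaglandin E synthase of the microsomal family, fell in OSK (log2 change -1.56, SE 0.12; limma adjusted p = 2.71e-08). GSTO2, the neighbour of GSTO1, rose in OSK by 0.79 (SE 0.20; limma adjusted p = 0.00418).

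The genes whose pattern was most like that of GSTA4 were ranked by Pearson's r over the 11 libraries on the log2(value + 1) scale, among 12099 genes with a mean of at least 50. The libraries fall into 5 lines of 2 or 3 and share depth and scaling, so r is a description. Among the first 5 were CD99 (0.98), POU2F1 (0.97), OS9 (0.96) and PRDX6 (0.96). CD99 encodes a cell surface glycoprotein, POU2F1 the transcription factor Oct1, OS9 a lectin of endoplasmic reticulum quality control, and PRDX6 a peroxiredoxin that reduces phospholipid hydroperoxides. PRDX6 averaged 2428 ± 124 in GFP (SD, n = 3), 4631 ± 348 with Oct4 and 8412 ± 167 in OSK (n = 2 each). Among the members GSTO1 was the most like GSTA4 (r = 0.85, rank 133), and GSTM1 the least (r = -0.58).

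**Figure D4:**
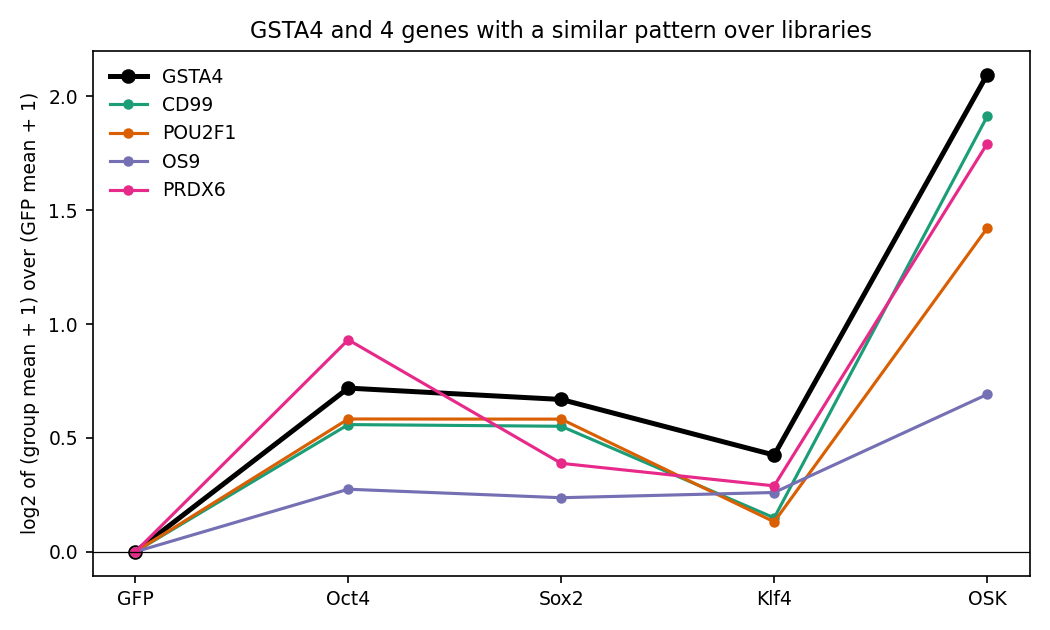
Log2 ratio of the group mean to the GFP mean (each with 1 added, y axis) in the 5 lines for GSTA4 and 4 of the 5 genes most like it over the 11 libraries. Lines only join the points of a gene. All 5 genes shown have their highest value in OSK, which follows largely from choosing the other 4 by likeness to GSTA4 over these libraries.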

How the data were processed

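The deposited table holds a signal in normalised counts that the authors made, from the values, by dividing each library's gene counts by 1 factor and rounding to 2 decimals. The value of 1 read divided 100% of the values up to 200 evenly (tolerance 0.0061) in every library, which allowed the reads to be recovered. STAR 2.7.1a and featureCounts 1.6.2 are named in the submitters' processing notes. The annotation, the use of strand and the normalising tool are not given in the sources used here, so GENCODE 29 (GRCh38) served for positions and lengths.

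The main test was limma 3.58.1 in R 4.3.3, with a trend in eBayes, applied to log2(value + 1). That scale understates changes of low genes. All 11 libraries entered 1 fit, with 6 residual degrees of freedom and 9.21 from the prior. The Benjamini-Hochberg adjustment covered all 18828 genes, and the threshold was 0.05. The design allowed for raw counts or normalised values, and the files held the latter. edgeR 4.0.16 and DESeq2 1.42.0 on recovered reads, other filters, pseudocounts and scalings, only the compared groups, the replicate block and leaving out libraries were alternatives. TMM scaling over all features, leaving out GFP replicate 1 and OSK replicate 1 together, and the principal transcript's length were chosen after seeing the data. The procedure was also run on simulated data, with the same spread setting for every gene and no library that stood apart. That run does not show how the procedure performs with libraries such as GFP replicate 1 and OSK replicate 1.

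All 10 members are named, with 4 of the 5 genes most like GSTA4 (the other is not reported here) and at most 3 genes per pathway list with the largest OSK changes. The 3 calls that combine several comparisons were counted after values were seen. Members and lists were chosen with earlier results of these data known.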

Additional observations from a re-analysis of the deposited data

How the results depend on the processing

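The GSTA4 rise in OSK held in all settings, with log2 changes from 1.87 to 2.20. The number of members changed in the Klf4 line, 6, was 3 with TMM scaling over all features and with DESeq2, and from 2 to 7 when libraries were left out. GSTA4 lost its Sox2 call without Sox2 replicate 2 (0.59, over a range of 0.51 to 0.78) and gained a Klf4 call without GFP replicate 2 (0.52) or Klf4 replicate 2 (0.65), over a range of 0.20 to 0.65. Every reversed direction was of a change that did not pass. Over the settings that left libraries out, these were GSTA4 between Oct4 and Sox2 (-0.04 to 0.15), GSTM1 between Oct4 and Klf4 (-0.48 to 0.15) and between Sox2 and Klf4 (-0.39 to 0.24), GSTP1 with Sox2 (-0.18 to 0.04) and against the sum (-0.08 to 0.36), GSTO1 against the sum (-0.44 to 0.12), GSTZ1 with Klf4 (-0.13 to 0.05), MGST1 between Oct4 and Klf4 (-0.29 to 0.05), and MGST2 between OSK and Oct4 (-0.41 to 0.06), OSK and Klf4 (-0.46 to 0.00) and Oct4 and Klf4 (-0.19 to 0.08). With TMM scaling over all features GSTP1 was 0.03 with Sox2 and -0.03 against the sum, and GSTZ1 0.02 with Klf4. The cause was not tested.

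With the replicate number as a block, which leaves GFP replicate 3 without a partner, 5, 8, 4 and 8 members changed against GFP with Oct4, Sox2, Klf4 and OSK, and GSTA4 changed by 0.82, 0.76, 0.51 and 2.19. GSTZ1 with Klf4 was then 0.05, and calls against GFP were lost for GSTM4 in OSK and for GSTO1 and MGST1 with Klf4. The labels do not say that the numbers pair libraries. Same-numbered libraries deviated together between GFP and OSK (r = 0.41) and not elsewhere (-0.07 to 0.04). In GFP and OSK, replicate 1 is the library that stood apart with reads on more features. This r therefore cannot tell pairing from what set those libraries apart. With 2 libraries a line, leaving 1 out assumes that the other varies like the rest, and low members such as MGST2 (55 reads in GFP replicate 1) are measured with the least precision.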

Other observations

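The counts and changes of this section come from all libraries and are not given without GFP replicate 1 and OSK replicate 1, which stood apart. The genes that supply glutathione moved in both directions. GGT5, which counts among those tested, had 103.28 in GFP replicate 1, 21.68 in OSK replicate 1 and at most 1.71 elsewhere. Of 14 tested genes of glutathione synthesis, turnover and reduction, 8 passed in OSK against GFP (5 higher and 3 lower), beside 39.7% of all genes. With Oct4 8 passed (5 and 3), beside 37.3%, with Sox2 11 (8 and 3), beside 41.6%, and with Klf4 8 (5 and 3), beside 33.5%. Their median log2 change in OSK was 0.19, against -0.01 over all genes. SLC7A11, the cystine carrier of the cystine and glutamate exchanger, had 27.81, 28.33 and 21.39 normalised counts in GFP and 139.84 and 171.58 in OSK, a log2 change of 2.55 (SE 0.22; limma adjusted p = 1.23e-07). It was higher still with Sox2, at 205.32 and 205.5. GSR, which regenerates reduced glutathione, rose by 1.28 in OSK (SE 0.07; limma adjusted p = 1.40e-09). SLC3A2, the heavy chain that partners SLC7A11 and other amino acid carriers, fell by 1.17 on the log2 scale in OSK (limma adjusted p = 8.96e-09).

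Exporters of glutathione conjugates gave 2 calls among 6 tested genes in OSK (1 higher and 1 lower), 5 with Oct4 (4 and 1), 4 with Sox2 (2 and 2) and 3 with Klf4 (0 and 3). Over all genes tested the shares called were 39.7% in OSK, 37.3% with Oct4, 41.6% with Sox2 and 33.5% with Klf4. The exporters' median log2 change in OSK was 0.14. ABCC1, an ATP-driven exporter of conjugates, had 5267.07, 5681.39 and 5979.22 normalised counts in GFP and 15481 and 15117 in OSK (log2 change 1.44, SE 0.08; limma adjusted p = 6.51e-10). ABCC4 fell by 0.79 on the log2 scale (limma adjusted p = 3.17e-05). Of 14 tested enzymes that act on aldehydes, 6 passed in OSK (2 higher and 4 lower), 10 with Oct4 (4 and 6), 9 with Sox2 (1 and 8) and 2 with Klf4 (0 and 2). These counts stand beside the same all-gene shares, and the median log2 change in OSK was -0.08. ALDH3A1 did not pass in OSK, but its GFP libraries disagreed. It had 44.69 in GFP replicate 1, 7.08 and 5.83 in the other GFP libraries, and 33.6 and 25.3 in OSK. CBR3, a carbonyl reductase with at most 3 reads in each GFP library, was at least 6.97-fold higher in OSK, the floor being 3 reads per library. ALDH1A1, a retinaldehyde dehydrogenase, changed by -1.70 (limma adjusted p = 0.00275) and AKR1B1, aldose reductase, by 0.81 (limma adjusted p = 0.000691).

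Among 7 other genes that use glutathione, 4 passed in OSK (3 higher and 1 lower), 3 with Oct4 (2 and 1), 4 with Sox2 (2 and 2) and 1 with Klf4 (lower). The all-gene shares were 39.7%, 37.3%, 41.6% and 33.5% in the same order. Their median log2 change in OSK was 0.19. GLRX, a glutaredoxin that removes glutathione from proteins, had 154.91, 147.7 and 150.67 normalised counts in GFP and 1041.75 and 1118.6 in OSK, a log2 change of 2.83 (SE 0.14; limma adjusted p = 2.62e-10). HAGH, which completes the glyoxalase pathway, changed by 0.56 (limma adjusted p = 0.000187) and ESD, which hydrolyses S-formylglutathione, by -0.73 (limma adjusted p = 1.64e-06). Of 9 regulators of the NRF2 pathway, which drives many antioxidant genes, 5 passed in OSK (3 higher and 2 lower), 6 with Oct4 (4 and 2), 7 with Sox2 (4 and 3) and 4 with Klf4 (3 and 1), beside the same all-gene shares. Their median log2 change in OSK was -0.07. NFE2L2, the gene of NRF2, changed by 0.66 in OSK (SE 0.07; limma adjusted p = 1.42e-06), its partner MAFF by 0.56 (limma adjusted p = 0.000594) and the adaptor SQSTM1 by -0.71 (limma adjusted p = 1.60e-06).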
